A study of Mus musculus with 91 samples.

Results

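Stellate cells and the matrix they lay down were followed in mouse liver through 10 genes, chosen by name: Postn, Col1a1, Col1a2, Col3a1, Col4a1, Lum, Dcn, Timp1, Acta2 and Des. All 10 were measured, out of 18193 genes with a probe set of a single gene name. They have 19 of the 45037 probe sets on the array, an Affymetrix chip read after labelling from the 3′ end of RNA. The 91 arrays came from livers of adult male mice in 19 groups, 15 groups with 5 arrays and 4 groups with 4. The study set carcinogenic beside non-carcinogenic chemicals, and the comparisons here ask how each shifted these genes.

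All mice were C57BL (a C57BL/6J background, per the growth protocol), except 2 groups of the strain C57BL/hCAR/hPXR, whose name gives the human forms of the receptors CAR and PXR. Phenobarbital, an inducer of CAR targets, was given in drinking water at 0.05% w/v for 28 or 56 days, each against mice on H2O for the same time. All other exposures lasted 28 days. Cyproterone acetate, a steroidal antiandrogen, at 160 mg/kg and 1,4-dichlorobenzene, a deodorant chemical, at 600 mg/kg were gavaged and share 1 corn oil (CO) control group. Wy-14643, an agonist of the lipid receptor PPAR-alpha, was gavaged at 100 mg/kg against the carboxymethylcellulose (CMC) group Co1. CITCO, an agonist of human CAR, was injected into the peritoneum at 10 mg/kg in C57BL mice, against the CMC group Co4, and in hCAR/hPXR mice, against their own CMC group. Piperonyl butoxide, an insecticide synergist, was injected into the peritoneum at 600 mg/kg against CMC group Co2. Groups labelled pioglitazone (100 mg/kg by gavage, against CMC group Co5) and labelled methapyrilene (1000 ppm in food, against CMC group Co3) complete the series. The labels give no route for the control vehicles, no age in weeks and no detail of how the human receptors are expressed.

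2 of these labels are at odds with marker genes of the exposure. In livers labelled pioglitazone Cyp2b10, a CAR target, was 6.06 ± 0.495 (log2, SE) above its control (adjusted p = 1.17e-15) and Cyp2c55 was 3.48 ± 0.394 above it (adjusted p = 2.11e-09), while the PPAR-gamma targets Fabp4 (-0.33), Cidec (-0.60) and Cd36 (-0.42) did not pass. In livers labelled methapyrilene Fabp4 was higher by 3.37, Cidea by 3.11, Cidec by 2.55 and Cd36 by 1.76, all past the test, and Cyp2b10 differed by -0.36 without passing it. Fabp4 (5.14), Cidea (5.03), Cd36 (2.69) and Cidec (1.41) were also higher after Wy-14643. Cd36 was higher after piperonyl butoxide (1.90) and 1,4-dichlorobenzene (1.42) as well, so these markers are not particular to 1 group. The groups labelled pioglitazone and methapyrilene are called by their label only, and no direction is drawn from the compound named in it. Lrat and Reln, defining genes of stellate cells, were measured at mean log2 values of 7.50 and 9.49 over the 91 arrays, and Alb, the main hepatocyte product, at 15.16. Array medians lay between 5.18 and 5.36, and the lowest mean correlation of an array with its own group was 0.973, for replicate 2 of cyproterone acetate.

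Hepatic stellate cells store vitamin A in the space between hepatocytes and sinusoids. On injury they turn into contractile myofibroblasts that secrete fibrillar collagen, a process driven by TGF-beta and PDGF signals and the source of most scar matrix in fibrosis. Collagens I and III form fibrils, collagen IV builds basement membrane, small proteoglycans such as decorin and lumican bind the fibrils, and TIMP proteins restrain the proteases that remove them. In bulk liver, fewer cells of a type and less RNA per cell cannot be told apart.

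The sequences before 3 start sites are shown because the results turn on Postn and Col3a1, and because Col1a2 varied most closely with Col3a1. They are the 250 bases upstream, written 5′ to 3′ on the strand of the gene, from RefSeq on GRCm38.p6. Capitals mark matches on either strand to 6 motifs, with no overlap between matches in the windows shown. The TATA box was searched as TATAAA and the binding site of NF-Y as CCAAT. The site of Sp1 was searched as GGGCGG and that of AP-1 as TGANTCA. A SMAD element was searched as CAGACA. The last motif was the CArG box of serum response factor, searched only in its strict form: CC, 6 bases of A or T, then GG.

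Postn, second start site, chr3:54360857-54361106, plus strand: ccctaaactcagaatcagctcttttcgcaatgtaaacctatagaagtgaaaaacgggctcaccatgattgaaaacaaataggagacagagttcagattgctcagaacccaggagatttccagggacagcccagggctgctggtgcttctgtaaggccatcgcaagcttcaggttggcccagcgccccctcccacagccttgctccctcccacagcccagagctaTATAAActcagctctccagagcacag
Col3a1, chr1:45311288-45311537, plus strand: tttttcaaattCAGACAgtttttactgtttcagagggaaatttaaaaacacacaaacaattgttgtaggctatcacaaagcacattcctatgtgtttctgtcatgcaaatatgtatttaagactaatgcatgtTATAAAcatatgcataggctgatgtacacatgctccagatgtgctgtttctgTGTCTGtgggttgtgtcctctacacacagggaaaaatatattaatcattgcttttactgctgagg
Col1a2, chr6:4505368-4505617, plus strand: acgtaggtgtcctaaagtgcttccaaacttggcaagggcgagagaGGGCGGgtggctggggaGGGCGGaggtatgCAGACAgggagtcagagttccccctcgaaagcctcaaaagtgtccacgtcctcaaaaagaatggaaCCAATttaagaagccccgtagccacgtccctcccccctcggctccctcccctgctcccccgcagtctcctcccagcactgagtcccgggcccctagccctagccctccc

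The Postn window shown holds 1 match, TATAAA at -26 to -21 from the second start site. The window before the first listed start, where the annotated span of Postn (chr3:54359267-54391041) begins, holds 0 matches to the 6 motifs and is not printed. In Col3a1 the TATA box lies at -117 to -112, and the SMAD element at -239 to -234 and, on the other strand, at -65 to -60. Col1a2 holds the Sp1 site at -205 and -188, the SMAD element at -175 and the NF-Y site at -109. Among 32851 windows of this length, 12.4% hold the TATA box, 17.1% the SMAD element, 32.7% the Sp1 site, 33.8% the NF-Y site, 6.75% the AP-1 site and 1.47% a CArG box. A match is a string of letters, not a bound site. Neither the AP-1 site nor the strict CArG box matched in any window of the 10 genes. CArG boxes with other bases were not searched, so their absence is not shown. Of the 10 genes 7 had a window, with 8 windows in all, and Col1a1, Lum and Dcn had none here. Col4a1 and its partner chain Col4a2 lie head to head on chromosome 8, with starts at 11312826 on the minus strand and 11312805 on the plus strand, so that their first bases overlap. Lum (chr10:97565501-97572703) and Dcn (chr10:97479500-97518163) are neighbours on the same chromosome.

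Values are log2 expression values made by the authors with RMA, which has no zero, so that a weak gene has a low value and never an absent one. Each gene was read from its probe set with the highest mean. Dcn was bright (mean 11.29, above 95.8% of genes) and Timp1 dim (4.90, above 30.6%), and values of different genes are not compared, since probe sets differ in response. A difference passed at an adjusted p below 0.05 in limma, adjusted by Benjamini-Hochberg over the 18193 genes, and n is the number of mice in a group.

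Of 100 possible results (10 genes in 10 comparisons with a control) 4 passed. Postn and Col3a1 were lower after cyproterone acetate, and Col4a1 and Postn were higher after Wy-14643. None of the 10 genes passed in the other 8 comparisons. Of all genes 5.32% passed after cyproterone acetate and 10.6% after Wy-14643, the highest shares, and 0.00550% to 3.83% in the other 8.

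**Figure D1:**
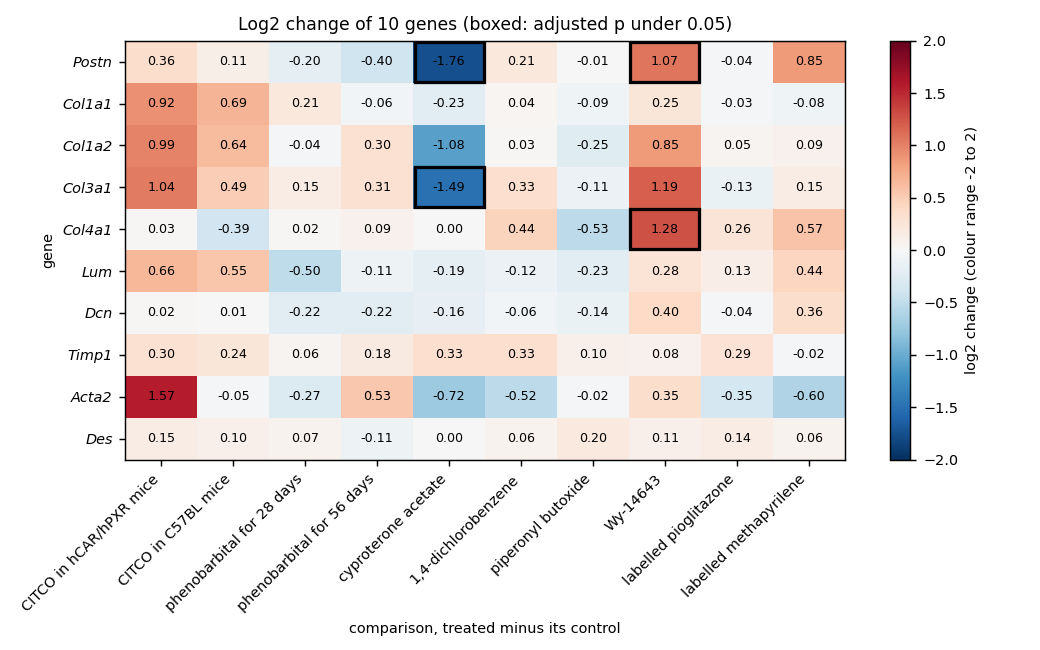
Log2 change of each gene (rows) in each treated group against its control (columns), printed in each cell and coloured from -2 to 2, with a box where the adjusted p was below 0.05. The 4 boxed cells are Postn (-1.76) and Col3a1 (-1.49) under cyproterone acetate and Postn (1.07) and Col4a1 (1.28) under Wy-14643.

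Cyproterone acetate lowered Postn, which encodes periostin, a secreted matrix protein made by activated mesenchymal cells. The 5 treated livers read 6.96, 6.26, 6.32, 7.14 and 7.10 for Postn, and the 5 corn oil livers 8.07, 9.16, 8.79, 8.36 and 8.19. Every treated liver lay below every control liver, a separation seen for 4.87% of all genes in this comparison. The difference was -1.76 ± 0.319 (log2, SE, n = 5 and 5, 95% interval -2.39 to -1.12), a 3.38-fold fall, with an adjusted p of 8.79e-05 in limma. It ranked 42 of 18193 genes by size. In this comparison 5.32% of all genes passed, against 2 of the 10 genes here.

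The other gene that passed was Col3a1, the chain of type III collagen. Its treated values were 7.45, 9.0, 8.82, 8.98 and 8.39, and its corn oil values 8.58, 10.85, 10.81, 9.94 and 9.91. The groups overlap through corn oil replicate 1, which lay below 3 treated livers. The difference was -1.49 ± 0.466 (n = 5 and 5), a 2.81-fold fall, with an adjusted p of 0.0413. The call was lost when the fit held only the groups compared (adjusted p = 0.0918), when probe sets were averaged (-1.05, adjusted p = 0.131), when every probe set was tested (adjusted p = 0.0568), and without any of 7 single livers. Left out in turn, these were cyproterone acetate replicates 1 (-1.22), 2 (-1.61) and 5 (-1.45) and corn oil replicates 2 (-1.28), 3 (-1.29), 4 (-1.51) and 5 (-1.52). A second, dim Col3a1 probe set differed by -0.62 (adjusted p = 0.459).

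Col1a2, a chain of type I collagen, read 7.55, 7.62, 8.02, 8.56 and 7.77 after cyproterone acetate and 7.97, 9.57, 9.74, 8.82 and 8.83 after corn oil. The difference of -1.08 ± 0.403 did not pass (adjusted p = 0.104). Corn oil replicate 1 again lay among the treated livers, and without it Col1a2 passed as well, with a count of 3 genes. The partner chain Col1a1 differed by -0.23 ± 0.262 (adjusted p = 0.713).

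None of the remaining genes passed after cyproterone acetate. Lum, lumican, had treated values between 7.96 and 8.54 (median 8.19) within the corn oil range of 7.64 to 9.14, a difference of -0.19 (95% interval -0.87 to 0.48). Dcn, decorin, differed by -0.16 (interval -0.65 to 0.32), Col4a1 by 0.00 (interval -0.61 to 0.61) and Des, desmin, an intermediate filament of rodent stellate cells, by 0.00 (interval -0.24 to 0.24). Acta2, the smooth muscle actin of myofibroblasts and vessel walls, read 6.78 to 7.32 against 7.16 to 9.46, where corn oil replicate 3 alone was above 7.69. Its difference was -0.72 ± 0.508 (adjusted p = 0.491). Timp1, an inhibitor of matrix metalloproteinases, was 5.48 in treated replicate 2 and 5.76 in replicate 5 but 4.45 to 4.69 in the other treated livers, against 4.43 to 4.87 after corn oil (difference 0.33, adjusted p = 0.477). Over the 10 genes 7 differences were below 0, and the median was -0.21, beside 0.02 over all genes.

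Other matrix genes were taken from lists written with earlier results of these data known, and their counts are read beside the 5.32% of all genes that passed after cyproterone acetate. None of these 4 matrix lists stands far from that share. Of 31 fibrillar and other matrix genes 2 fell, Col14a1 (-1.0), a collagen of the fibril surface, and Thbs2 (-0.38), a matricellular thrombospondin. Of 15 collagen maturation genes 1 fell, Pcolce (-0.74), an enhancer of procollagen processing. Of 22 protease and inhibitor genes 1 fell, Timp3 (-1.03), and none of 16 basement membrane genes passed. Of 25 TGF-beta and PDGF genes Bambi (-0.64), a TGF-beta pseudoreceptor, and Smad4 (-0.39), the common SMAD, fell, and Pdgfc (0.79), a PDGF ligand, rose.

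Of 20 stellate cell markers 2 fell, Hand2 (-0.89), a stellate cell transcription factor, and Vipr1 (-0.56), and the other 18 did not pass. Of the 20 differences 4 were above 0, beside 54.5% of all genes, and the median was -0.31. The mean of these 20 markers per liver was 7.14 to 7.54 after cyproterone acetate and 7.43 to 8.18 after corn oil, with overlap. Lrat and Reln, named above, were not among those that passed. Of 18 contractile genes Actn1 (-0.70) fell.

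None of the 12 sinusoidal endothelial markers passed. Their differences were above 0 in 0 of 12 (median -0.40), and their mean per liver was 7.41 to 7.77 after treatment and 7.55 to 8.45 after corn oil, with overlap. Of 25 acute phase genes 5 rose, led by Lcn2 (3.63), Orm3 (3.04), Orm2 (2.75) and Apcs (1.20), secreted proteins of liver inflammation. None of 15 Kupffer cell and macrophage markers passed, with means per liver of 7.57 to 8.33 and 7.51 to 8.36. The part of these in the lower Postn and Col3a1 was not tested.

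The 2 gavaged compounds with the corn oil control did not act alike on Postn. After 1,4-dichlorobenzene Postn read 8.77, 8.88, 8.69, 8.35 and 8.94, within the corn oil range, and Col3a1 read 9.88, 10.84, 10.44, 9.93 and 10.65. Against corn oil none of the 10 genes passed, where 3.83% of all genes did. The differences were 0.21 ± 0.319 for Postn, 0.33 ± 0.466 for Col3a1 and 0.44 ± 0.307 for Col4a1, the last with an interval of -0.17 to 1.05. The doses differed (600 against 160 mg/kg), so the treated groups are matched in time and route but not in dose.

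Compared directly, without the shared control, Postn was 1.97 ± 0.319 higher after 1,4-dichlorobenzene than after cyproterone acetate (n = 5 and 5, 3.92-fold, adjusted p = 6.46e-06). Col3a1 was 1.82 ± 0.466 higher (3.53-fold, adjusted p = 0.00899), and 4.11% of all genes passed in this contrast. The Col3a1 call was lost without cyproterone acetate replicate 1 (1.55, adjusted p = 0.0582). Col1a2 was 1.12 ± 0.403 higher and passed only without 1,4-dichlorobenzene replicate 1, its adjusted p being 0.111 with all livers. The matrix lists are read beside that 4.11%. Of 31 fibrillar and other matrix genes Col14a1 (1.07) and Sparc (1.07) were higher in the same contrast. Of 15 collagen maturation genes Pcolce (0.75) was higher. Of 16 basement membrane genes Nid2 (0.79) was higher and Col18a1 (-0.52) lower. Of 22 protease and inhibitor genes Plaur (-0.40), the urokinase receptor, was lower. Of 25 acute phase genes 7 were lower, among them Lcn2 (-4.17), Orm3 (-2.62) and Apcs (-1.22). Of 9 proliferation genes 3 were higher, Ccnb2 (1.24), Birc5 (1.07) and Top2a (1.02). The part of these in the Postn and Col3a1 differences was not tested. Against corn oil, where 3.83% of all genes passed, Fn1 (-0.72), fibronectin, fell after 1,4-dichlorobenzene among 31 fibrillar and other matrix genes. Col18a1 (-0.67) fell among 16 basement membrane genes, and Mylk (-0.57), myosin light chain kinase, among 18 contractile genes. The acute phase genes that passed against corn oil all fell, led by Saa4 (-1.04), Itih3 (-0.73), Itih4 (-0.72) and Fgb (-0.37).

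Wy-14643 raised Col4a1, whose product forms the basement membrane scaffold together with that of Col4a2. The treated livers read 7.66, 8.10, 8.33, 8.61 and 9.89, and the 4 control livers of group Co1 read 7.80, 7.21, 7.01 and 6.94. All treated livers but replicate 1 were above every control. The difference was 1.28 ± 0.325 (n = 5 and 4, 95% interval 0.63 to 1.92), 2.42-fold, with an adjusted p of 0.00506 in limma. A second Col4a1 probe set rose by 0.76 (adjusted p = 0.0352 among all probe sets). In this comparison 10.6% of all genes passed, against 2 of the 10 genes here.

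Postn was the other gene that passed. It read 7.94, 6.99, 7.82, 7.71 and 9.55 after Wy-14643 and 7.36, 6.88, 6.56 and 6.93 in group Co1. Treated replicate 2 lay inside the control range, and replicate 5 stood well above the rest. The difference was 1.07 ± 0.338, 2.10-fold, with an adjusted p of 0.0283.

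Both calls rest on few livers. When the fit held only the 2 groups compared, neither passed (adjusted p = 0.0583 for Col4a1 and 0.135 for Postn). Without Wy-14643 replicate 5 the differences were 0.93 for Col4a1 (adjusted p = 0.0637) and 0.68 for Postn (adjusted p = 0.222). Postn was also lost without Co1 replicate 2 (1.05, adjusted p = 0.0706), 3 (0.95, adjusted p = 0.0926) or 4 (1.07, adjusted p = 0.0531).

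The other 8 genes did not pass under Wy-14643, though all 10 changes were above 0, with a median of 0.38 beside -0.04 over all genes. With the probe sets of each gene averaged, 9 of 10 were above 0, as they were without treated replicate 5, and against the mean of all 5 C57BL CMC groups 8 were. Col3a1 read 8.99, 9.89, 10.13, 10.75 and 11.86 against 10.01, 8.87, 8.50 and 9.16, a difference of 1.19 ± 0.494 (adjusted p = 0.110) that passed only without replicate 1. Col1a2 differed by 0.85 ± 0.428 (adjusted p = 0.201), Acta2 by 0.35, Lum by 0.28 and Col1a1 by 0.25. Des (0.11) and Timp1 (0.08) were closest to 0, with intervals of -0.15 to 0.36 and -0.40 to 0.56.

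The probe sets of Dcn disagreed. The bright one differed by 0.40 ± 0.258 and did not pass, and a dim one (mean 4.88) was higher by 1.09 ± 0.241 (adjusted p = 0.00152). Over the 91 arrays the correlation between them was 0.15.

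The mice given Wy-14643 differed from each other in most of these genes at once. Averaged over the 10 genes, replicate 1 was -0.02 from the control mean, with 4 of 10 genes above it, and replicate 5 was 1.51 from it, with 10 of 10 above it. Replicate 5 was the highest of the 5 in Postn, Col1a2, Col3a1, Col4a1, Lum, Dcn, Timp1, Acta2 and Des. It also had the highest mean of the Kupffer cell markers (8.15), the stellate cell markers (8.07) and the proliferation genes (7.09) in its group.

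**Figure D2:**
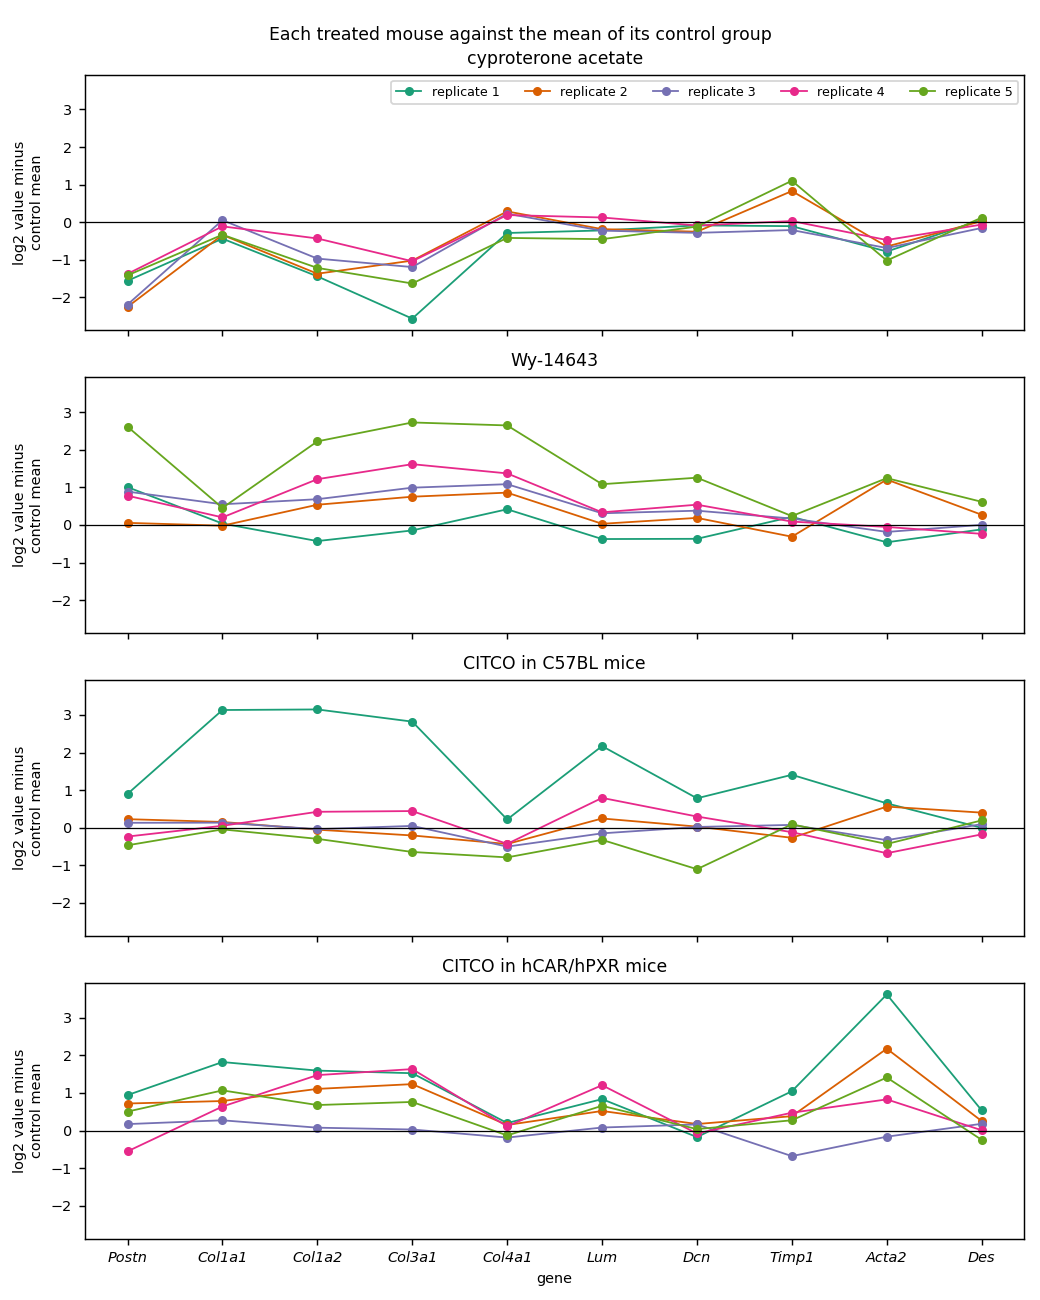
Log2 value of each treated mouse minus the mean of its control group, for the 10 genes, with each line standing for 1 mouse. In the Wy-14643 panel replicate 5 runs above the others in 9 of 10 genes, and in the C57BL CITCO panel replicate 1 stands about 3 above the control mean in Col1a1 and Col1a2 while the other 4 mice lie near 0.

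The matrix lists are read here beside the 10.6% of all genes that passed after Wy-14643. Of 16 basement membrane genes Col4a2 (1.15), Lamb2 (0.56), a laminin chain, and Agrn (0.46), agrin, rose and none fell, with a list median of 0.07. Of 31 fibrillar and other matrix genes only Col5a1 (0.50) rose, and the list median was -0.05. Among 15 collagen maturation genes Crtap (0.83), a subunit of the prolyl 3-hydroxylase complex, rose and P4hb (-0.26), protein disulfide isomerase, fell. Among 22 protease and inhibitor genes Adamts1 (0.76) rose and Reck (-0.94), a membrane inhibitor of metalloproteinases, fell.

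Of 25 TGF-beta and PDGF genes Ccn2 (1.49), connective tissue growth factor, Tgfbi (1.14), a TGF-beta induced matrix protein, and Tgfbr2 (0.55), the type II receptor, rose and none fell. Of 20 stellate cell markers 1 rose, Hgf (0.72), hepatocyte growth factor, and 16 differences were above 0, beside 43.3% of all genes. Of 18 contractile genes 1 rose, Tpm1 (0.69), a tropomyosin. Of 11 portal fibroblast and mesothelium genes Entpd2 (0.59) rose and Gli1 (-0.40) fell.

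Of 15 Kupffer cell and macrophage markers 8 rose, among them Lgals3 (1.94), C1qb (1.70), Cd5l (1.68) and C1qa (1.61), and the median was 1.14. Their mean per liver was 6.99 to 8.15 after Wy-14643 and 6.33 to 6.90 in group Co1. The share of genes or lists that separate these 2 groups was not counted, so nothing is drawn from this gap. Of 12 sinusoidal endothelial markers Lyve1 (1.57) and Stab1 (0.63) rose, with means per liver of 7.36 to 7.87 against 7.21 to 7.45. Of 9 proliferation genes 6 rose, among them Mki67 (1.72), and of 12 infiltrating leukocyte genes 1 rose, Ptprc (1.23). The acute phase genes that passed after Wy-14643 were Mt1 (3.63), Lcn2 (3.58), Mt2 (3.28) and Apcs (1.08), all higher. The part of these cells and genes in the Col4a1 and Postn differences was not tested.

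CITCO gave no call among the 10 genes in either strain. In hCAR/hPXR mice, where 0.0989% of all genes passed, all 10 differences were above 0 and the median was 0.51, beside 0.01 over all genes. Acta2 differed most. It read 10.74, 9.30, 6.96, 7.95 and 8.54 after CITCO and 8.42, 6.33, 7.93, 5.69 and 7.24 in hCAR/hPXR controls, a difference of 1.57 ± 0.508 (n = 5 and 5, adjusted p = 0.324). Both ranges overlap widely, with an SD of 1.43 among the treated mice.

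The collagens of hCAR/hPXR mice showed smaller differences with the same sign. Col1a1 read 7.87, 6.83, 6.32, 6.68 and 7.11 after CITCO and 6.65, 6.12, 5.96, 5.47 and 6.02 in controls. The difference of 0.92 ± 0.262 (95% interval 0.39 to 1.44) had the lowest adjusted p of the 10 genes, 0.184, and the treated mice other than replicate 3 were all above every control. Col1a2 differed by 0.99 ± 0.403, Col3a1 by 1.04 ± 0.466 and Lum by 0.66 ± 0.339. At an unadjusted p below 0.05, 4 of the 10 genes passed, as did 1274 of the 18193. Treated replicate 3 averaged -0.01 from the control mean over the 10 genes and replicate 1 averaged 1.19. With any single mouse left out, 8 to 10 of the differences were above 0, and without treated replicate 1 Acta2 differed by 1.06 and Col1a1 by 0.69.

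No marker of another cell type passed in hCAR/hPXR mice, and 51.8% of all genes had a difference above 0. Of 11 portal fibroblast and mesothelium genes 10 were above 0 (median 0.34), with overlapping means per liver of 5.62 to 6.30 after CITCO and 5.28 to 6.05 in controls. Of 15 Kupffer cell markers 1 was above 0 (median -0.46), as was 1 of 25 acute phase genes (median -0.48). The 20 stellate cell markers had a median of 0.00. The part of these in the collagen values was not tested.

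In C57BL mice given CITCO replicate 1 stood apart. Col1a1 read 9.05, 6.07, 6.05, 5.97 and 5.88 after CITCO and 5.60, 6.02, 6.05, 6.07 and 5.85 in group Co4. Col1a2 read 11.19, 7.99, 8.0, 8.46 and 7.74 against 7.60, 7.66, 8.06, 8.25 and 8.62. Replicate 1 was also the highest in Col3a1 (11.76), Lum (8.83) and Timp1 (6.14), while Col1a1 in the other 4 mice, at 5.88 to 6.07, lay close to the control range of 5.60 to 6.07.

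With replicate 1 the differences were 0.69 ± 0.262 for Col1a1 and 0.64 ± 0.403 for Col1a2. Without it they were 0.07 and 0.01. No gene of the 10 passed either way (lowest adjusted p 0.893 with it), where 0.00550% of all genes passed. Its stellate cell marker mean of 7.31, Kupffer cell mean of 7.84 and leukocyte mean of 5.82 were each the highest of its group. Their part in its collagen values was not tested.

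The difference in CITCO response between the strains passed for none of the 10 genes (0.00550% of all genes passed). The largest difference of responses was 1.62 ± 0.718 for Acta2 (95% interval 0.19 to 3.05, adjusted p = 0.99997 in limma). With all mice 10 of 10 were above 0, beside 50.0% of all genes. With single arrays left out Postn, Lum, Dcn, Timp1 and Des could lie below 0, Dcn running from -0.26 to 0.21. Of hCAR/hPXR controls against Co4, none of the 10 passed (0.126% of all genes did), and Timp1 had the largest difference, 0.77 ± 0.227 (adjusted p = 0.232). Timp1 read 4.93 to 5.81 in hCAR/hPXR controls and 4.31 to 4.96 in Co4.

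Phenobarbital left the 10 genes without a call at both times. At 28 days 0.967% of all genes passed and the changes ran from -0.50 (Lum) to 0.21 (Col1a1), and at 56 days 0.566% passed and they ran from -0.40 (Postn) to 0.53 (Acta2). Dcn, at 28 days, read 11.27, 11.48, 11.39, 11.50 and 11.33 after phenobarbital and 11.59, 11.54, 11.67, 11.67 and 11.62 on H2O, so that the groups did not overlap, as for 3.85% of all genes. The difference of -0.22 ± 0.243, with an error taken from all 19 groups, did not pass (adjusted p = 0.895).

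Acta2 scattered more. After 56 days of phenobarbital it read 6.27, 6.27, 9.13, 10.05 and 7.02, and on H2O 6.46, 7.54, 7.06, 8.13 and 6.88. Its response at 56 days less that at 28 days was 0.80 ± 0.718, and none of the 10 genes differed between the times (0.00% of all genes passed, with 879 at an unadjusted p below 0.05 in limma). Of the matrix and signalling lists only Tgfbr2 (0.68) rose at 28 days and P4ha2 (0.73), a collagen prolyl hydroxylase, at 56 days. Titles of the 28-day phenobarbital arrays carry a mark, "(2)", whose meaning the labels do not give.

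Piperonyl butoxide had 0.808% of all genes pass and none of the 10. The lowest change was Col4a1 at -0.53 ± 0.325 (95% interval -1.18 to 0.12, adjusted p = 0.526), with 6.65 to 7.32 in 4 treated livers and 6.97 to 7.66 in 5 of group Co2. Of 15 Kupffer cell and macrophage markers Marco (-1.98, adjusted p = 0.0478 in limma), a scavenger receptor, fell, and of 9 hepatocyte genes Ahsg (-0.43) fell. Against the mean of all 5 C57BL CMC groups, in place of Co2, Col1a1 was 0.74 higher (adjusted p = 0.00939), where its difference from Co2 was -0.09. With that control 4837 of the 18193 genes passed, where 147 did against Co2.

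The livers labelled pioglitazone had 0.0220% of genes pass and none of the 10, with changes from -0.35 (Acta2) to 0.29 (Timp1). Those labelled methapyrilene had 0.181% pass, and the largest change among the 10 was in Postn. It read 7.90, 7.51, 8.69, 7.64 and 8.44, against 6.78, 7.65, 6.51 and 7.82 in group Co3. The difference of 0.85 ± 0.338 had an adjusted p of 0.551, and Col4a1 differed by 0.57 ± 0.325. Set against the mean of all 5 C57BL CMC groups, Postn (1.25), Lum (0.93), Col4a1 (0.69) and Dcn (0.55) passed in livers labelled methapyrilene, a comparison across cohorts. In it 2785 of the 18193 genes passed, where 33 did against Co3.

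The control groups differed from each other too. Over the 7 C57BL control groups of 28 days an F test in limma passed for 5 of the 10 genes, where it passed for 42.8% of all genes. They were Postn (F = 13.5, adjusted p = 2.37e-09), Lum (F = 11.3, adjusted p = 4.61e-08), Col1a1 (adjusted p = 0.000216), Dcn (adjusted p = 0.00117) and Col1a2 (adjusted p = 0.0161). Col3a1, Col4a1, Timp1, Acta2 and Des did not pass, with adjusted p between 0.130 and 0.885.

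Postn set the C57BL CMC control groups apart from the corn oil and H2O groups. All 22 arrays of the 5 C57BL CMC groups lay between 5.60 and 7.93, and all 10 arrays of the 28-day corn oil and H2O groups between 8.04 and 9.16. The gap nearly closes with H2O at 56 days, whose lowest array read 7.931, beside 7.926 for the highest CMC array. How many of all genes separate these arrays was not counted, so the gap is not shown to be particular to Postn. The F test over these control groups passed for 42.8% of all genes. Lum had group means of 6.40 to 7.20 with CMC and 8.15 to 8.41 with corn oil or H2O, and Dcn 10.59 to 11.36 and 11.62 to 11.70. The level of Postn after cyproterone acetate, 6.76 ± 0.429 (SD, n = 5), lay inside the range of the CMC controls, and that after Wy-14643, 8.0 ± 0.940, was near that of H2O at 28 days, 8.21 ± 0.146. Vehicle, route and cohort cannot be told apart in these groups.

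Col1a1 and Col1a2 set apart a different group. In CMC group Co2, the control of piperonyl butoxide, the mean of Col1a1 was 6.93, against 5.79 to 6.06 in the other 4 C57BL CMC groups, and that of Col1a2 was 9.40 against 8.0 to 8.23. Col3a1 was 10.26 against 8.94 to 9.36 without passing the F test. Piperonyl butoxide livers were as high, at 6.84 ± 0.409 for Col1a1 and 9.15 ± 0.474 for Col1a2 (n = 4).

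**Figure D3:**
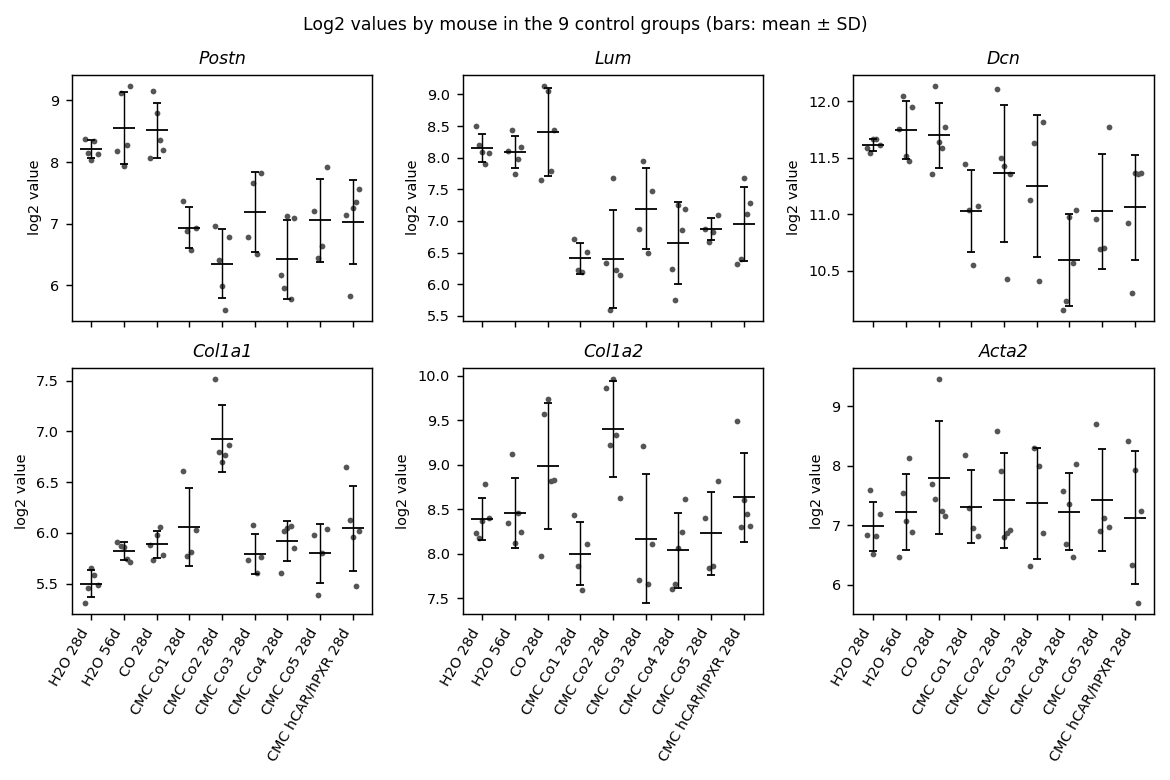
Log2 values of 6 genes by mouse in the 9 control groups, with bars for the mean ± SD of each group. Postn arrays of the C57BL CMC groups end at 7.93, below the lowest 28-day corn oil or H2O array at 8.04, and Col1a1 is highest in CMC group Co2.

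The other lists are read beside the 42.8% of all genes that passed this F test. It passed for 14 of 15 Kupffer cell, 11 of 12 endothelial, 22 of 25 acute phase and 12 of 20 stellate cell genes. It passed for 3 of 11 portal fibroblast and mesothelium, 2 of 7 cholangiocyte, 0 of 6 skeletal muscle and 0 of 3 adipocyte genes. Of the matrix lists it passed for 11 of 15 collagen maturation, 16 of 31 fibrillar, 6 of 16 basement membrane and 6 of 22 protease and inhibitor genes. Their part in the differences of Postn, Lum, Dcn and Col1a1 was not tested.

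Ranked over all 19 groups, Postn ran from 8.73 ± 0.231 (SD) in 1,4-dichlorobenzene livers to 6.34 ± 0.381 in piperonyl butoxide livers. Below the first came H2O at 56 days (8.55 ± 0.588), corn oil (8.51 ± 0.452), H2O at 28 days (8.21 ± 0.146), phenobarbital at 56 days (8.15 ± 0.386), livers labelled methapyrilene (8.04 ± 0.512), phenobarbital at 28 days (8.01 ± 0.204) and Wy-14643 (8.0 ± 0.940). The lower part held CITCO in hCAR/hPXR mice (7.38 ± 0.583), Co3 (7.19 ± 0.645), Co5 (7.05 ± 0.667), hCAR/hPXR controls (7.02 ± 0.686), livers labelled pioglitazone (7.01 ± 0.371), Co1 (6.93 ± 0.329), cyproterone acetate (6.76 ± 0.429), CITCO in C57BL mice (6.53 ± 0.522), Co4 (6.42 ± 0.643) and Co2 (6.35 ± 0.562). Neighbours in this order nowhere differed by more than their pooled SD, in any of the 18 steps. With 19 sorted means the steps are small in any case, so this says nothing of groups further apart.

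**Figure D4:**
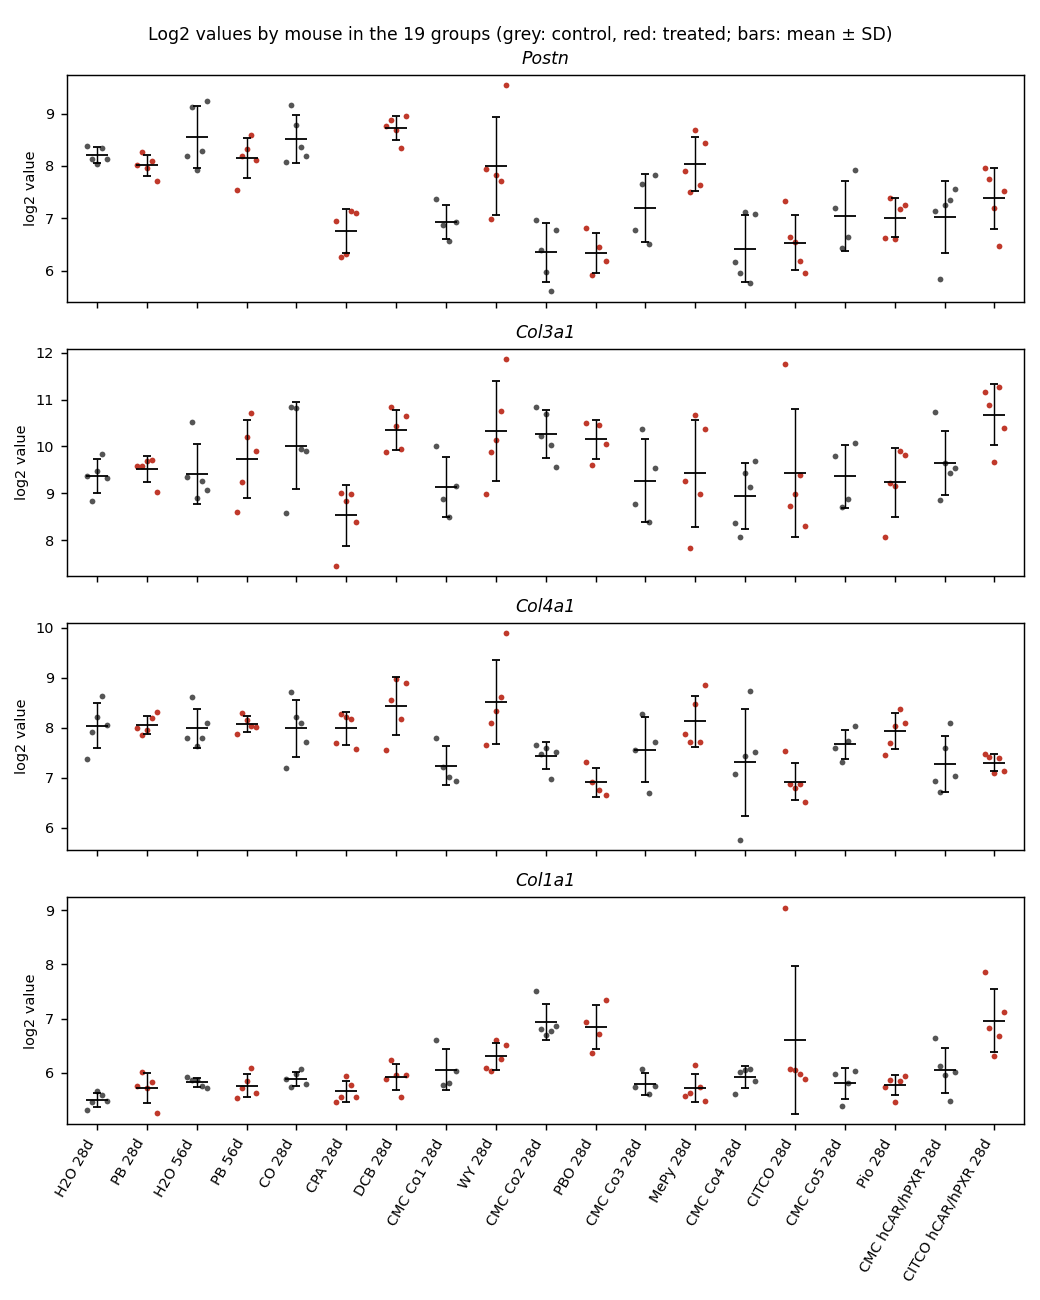
Log2 values of Postn, Col3a1, Col4a1 and Col1a1 by mouse in the 19 groups, each treated group to the right of its control, with bars for the mean ± SD. Postn after cyproterone acetate (CPA, 6.26 to 7.14) lies below all corn oil mice (CO, 8.07 to 9.16), and single mice stand out for Col4a1 (9.89 after Wy-14643, WY) and Col1a1 (9.05 after CITCO).

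In each of the other genes, too, 0 of 18 neighbouring pairs differed by more than the pooled SD. Col1a1, Col1a2, Col3a1, Timp1 and Acta2 were highest in hCAR/hPXR mice given CITCO, at 6.96, 9.62, 10.68, 5.80 and 8.70. Col1a2 and Col3a1 were lowest after cyproterone acetate, at 7.90 and 8.53, and Col1a1 on H2O at 28 days, at 5.50.

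Col4a1 ran from 8.52 after Wy-14643 to 6.91 after piperonyl butoxide, Lum from 8.41 on corn oil to 6.17 after piperonyl butoxide, and Dcn from 11.75 on H2O at 56 days to 10.59 in Co4. Acta2 was lowest after phenobarbital at 28 days (6.72) and Timp1 in Co5 (4.43). Des had the narrowest span, from 7.04 after piperonyl butoxide to 6.64 in Co4. The spread within groups, pooled, was largest for Acta2 (SD 0.837) and smallest for Des (SD 0.187).

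Some of the genes varied together among mice of the same group. With group means removed, over 91 arrays that share a normalization, 16 of the 45 pairs had a Pearson r above 0.5 and 1 was below 0. With group means kept 12 pairs were above 0.5 and 8 below 0. The share of all gene pairs above 0.5 was not computed, and the part of single far-off mice was not tested. Col1a2 and Col3a1 had an r of 0.94 with or without the group means, and Lum had 0.78 with each of them. Postn and Dcn had 0.75. Timp1 had its highest r with Col1a1 (0.42), and Des with Postn (0.43). Between groups the pattern loosened for Col1a1, whose r with Postn was 0.39 within groups and -0.18 over all arrays, and with Col4a1 0.23 and -0.21.

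**Figure D5:**
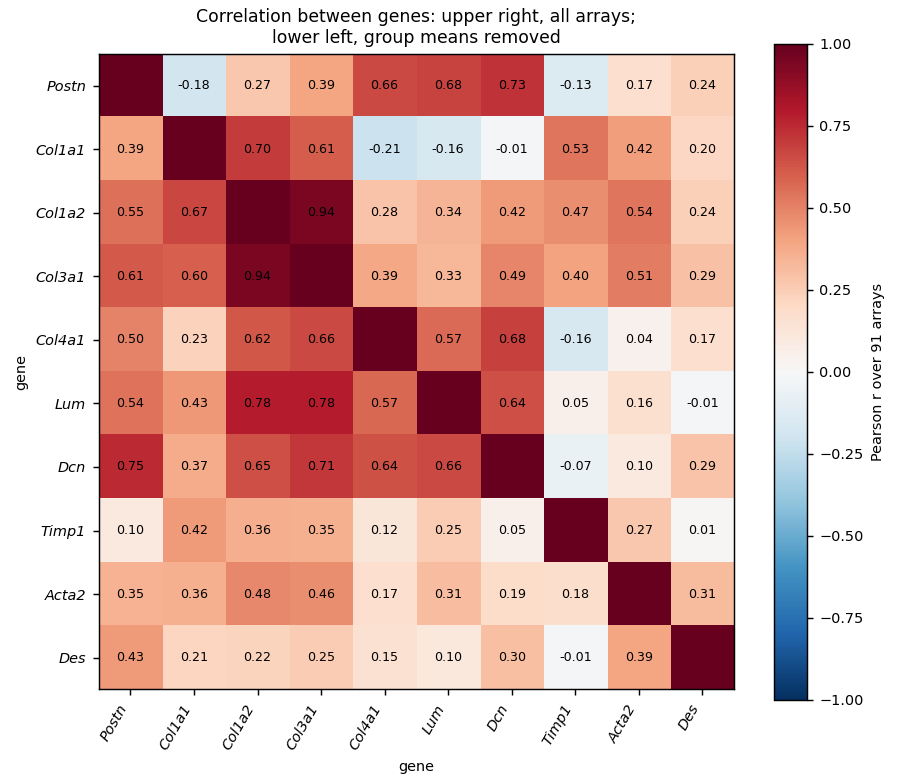
Pearson correlation between the log2 values of the 10 genes over 91 arrays, over all arrays above the diagonal and with group means removed below it. Col1a2 and Col3a1 stand at 0.94 on both sides, and Timp1 and Des have pale rows.

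The genes most like the mean of the 10, by Pearson r over the 91 arrays, were Sparc (0.88), Fstl1 (0.87), Ccdc80 (0.86), Col5a2 (0.83), Anxa1 (0.80), Col6a3 (0.79), Timp2 (0.76), Vim (0.74), Prss23 (0.72) and Fam102b (0.72). With group means removed Vim, vimentin, had 0.88. For single genes, Postn was nearest to Col14a1 (0.88), Ets1 (0.84) and Colec10 (0.83), Lum to Lhfp (0.89), Prss23 (0.81) and Serpinb6a (0.80), Dcn to Colec11 (0.88), Igfbp7 (0.87) and Emilin1 (0.86), and Col4a1 to Col4a2 (0.82), Emilin1 (0.80) and Lyve1 (0.78). Acta2 was nearest to Dpt (0.75), Mgp (0.73) and Myl9 (0.72), the last with 0.88 within groups, and Col1a1 to Col6a2 (0.82), Ltbp3 (0.79) and Lgi2 (0.75). Col1a2 and Col3a1 were nearest to each other (0.94), and each had 0.86 with Fstl1. Timp1 (0.66 with Pdpn) and Des (0.53 with Gm13889) had the lowest nearest neighbours.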

How the data were processed

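Mouse liver RNA was measured on 91 Affymetrix arrays, and 19 groups were taken from the sample titles. The deposited values are log2 expression values. For them the submitters' processing notes name RMA, and its software, version and settings are not given in the sources used here. The design text gives groups of 5 mice, assigned at random, and each array was taken as 1 mouse. No label ties an array to an animal, and if arrays shared one, the p-values would measure only the spread between these samples.

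Probe sets were named through GEO's platform annotation: 34945 carry 1 symbol, 932 several and 9160 none, and only the first kind was used. Each of 18193 genes was read from its probe set with the highest mean, which for 9010 genes was chosen among several. One model of 19 group means was fitted to all 91 arrays with limma 3.58.1 (R 4.3.3; lmFit, eBayes with trend, 72 residual degrees of freedom), with two-sided p-values adjusted by Benjamini-Hochberg over the 18193 genes within each comparison and a threshold of 0.05. The fit was tested on simulated data. Intervals are 95%. The number of arrays limits the precision.

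The 10 genes, the 20 other gene lists (282 of 305 members measured, the rest not used here) and the tests were chosen with earlier results of these data known. The text names the 10 genes, genes past the threshold from some of these lists (at most 4 per list and comparison), and the genes with the highest correlations. Treatment markers are named only to check the labels. Genes past the threshold in some other lists, such as hepatocyte stress and injury, are not named. Alternatives were a fit on the compared groups alone, no trend, only genes with a mean log2 of at least 6, probe sets averaged or all tested, array medians equalised, a replicate block, array weights, the mean of 5 CMC groups as control, and each array left out. Promoter sequences come from RefSeq (GRCm38.p6).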

Additional observations from a re-analysis of the deposited data

Results flagged for a closer look

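In 13 of 190 sets of values (a gene in a group of 4 or 5 mice) 1 mouse lay far from the others by Dixon's gap test, which chance does for about 1 in 20. Replicate 1 of CITCO in C57BL mice was such a mouse in 3 genes, with Col1a1 at 9.05 (others 5.88 to 6.07), Col1a2 at 11.19 (7.74 to 8.46) and Timp1 at 6.14 (4.46 to 4.82). Among hCAR/hPXR controls, replicate 2 was low in Postn at 5.83 (7.13 to 7.56) and replicate 1 high in Col1a2 at 9.50 (8.31 to 8.61). In CMC group Co2, replicate 1 was high in Col1a1 at 7.52 (6.70 to 6.86) and replicate 4 low in Col4a1 at 6.97 (7.47 to 7.66).

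Acta2 stood high at 8.70 in replicate 1 of CMC group Co5 (6.91 to 7.12) and at 9.46 in replicate 3 of corn oil (7.16 to 7.69). Col3a1 was 9.03 in replicate 5 of phenobarbital at 28 days (9.58 to 9.71) and 10.53 in replicate 2 of H2O at 56 days (8.89 to 9.33). Timp1 was 4.32 in replicate 2 of Wy-14643 (4.72 to 4.87), and Des was 6.76 in replicate 2 of phenobarbital at 28 days (6.88 to 6.92).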

How the results depend on the processing

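Over 15 comparisons, 118 of 125 counts of the 10 genes under other settings and 176 of 188 counts with 1 array left out were within 1.5 times of the reported count. None of the 6 differences that passed reversed. Differences that did not pass could change sign: Col1a1 after piperonyl butoxide went from -0.09 to 0.74 against the mean of the 5 CMC groups, and with an array left out Col4a1 ran from -0.20 to 0.18 after cyproterone acetate and Col3a1 from -0.09 to 0.78 after CITCO in C57BL mice. After cyproterone acetate 1 gene in place of 2 passed with only the compared groups fitted, with probe sets averaged and with every probe set tested, and 1 to 3 passed with an array left out. Postn passed there throughout, with adjusted p up to 0.00244 in limma. After Wy-14643 0 passed with only the compared groups fitted, and 0 to 3 with an array left out. For 1,4-dichlorobenzene minus cyproterone acetate the range was 1 to 3. Among the control groups 3 of the 10 (Postn, Col1a1, Lum) passed with probe sets averaged, in place of 5, and 4 to 6 with an array left out: Col1a2 was lost without Co2 replicate 1 or 3, Col4a1 was added without Co4 replicate 4 and Col3a1 without corn oil replicate 1. Against the mean of the 5 CMC groups 1 gene passed for piperonyl butoxide and 4 for livers labelled methapyrilene. The cause was not tested.

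With the replicate number as a block, the counts stayed at 2 for cyproterone acetate and 2 for Wy-14643, where Postn was 1.00 higher (adjusted p = 0.0414). The numbers were not taken as pairs, since in 0 of 10 comparisons did every same-numbered pair correlate over 0.1 (range -0.32 to 0.22).

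The number of genes called moved more. With only the compared groups fitted the counts were 0 (reported 1) for CITCO in C57BL mice, 332 (reported 176) for phenobarbital for 28 days, 289 (reported 968) for cyproterone acetate, 320 (reported 696) for 1,4-dichlorobenzene, 10 (reported 147) for piperonyl butoxide, 792 (reported 1936) for Wy-14643, 11 (reported 4) for livers labelled pioglitazone, 4 (reported 33) for livers labelled methapyrilene, 2 (reported 1) for the strain difference of CITCO, 239 (reported 748) for 1,4-dichlorobenzene minus cyproterone acetate and 15 (reported 23) for hCAR/hPXR controls minus Co4. With genes of a mean log2 of at least 6 the counts were 7 (reported 4) for livers labelled pioglitazone and 18 (reported 33) for livers labelled methapyrilene. With probe sets averaged the counts were 11 (reported 4) for livers labelled pioglitazone and 14 (reported 23) for hCAR/hPXR controls minus Co4. With every probe set tested the counts were 0 (reported 1) for CITCO in C57BL mice, 243 (reported 147) for piperonyl butoxide, 3559 (reported 1936) for Wy-14643, 17 (reported 4) for livers labelled pioglitazone, 4 (reported 1) for the strain difference of CITCO, 35 (reported 23) for hCAR/hPXR controls minus Co4 and 16564 (reported 7795) for the control groups. With array medians equalised the counts were 0 (reported 1) for CITCO in C57BL mice and 8 (reported 4) for livers labelled pioglitazone. With array weights the counts were 37 (reported 18) for CITCO in hCAR/hPXR mice, 840 (reported 176) for phenobarbital for 28 days, 295 (reported 103) for phenobarbital for 56 days, 68 (reported 4) for livers labelled pioglitazone, 3 (reported 1) for the strain difference of CITCO, 16 (reported 0) for the time difference of phenobarbital, 1186 (reported 748) for 1,4-dichlorobenzene minus cyproterone acetate and 70 (reported 23) for hCAR/hPXR controls minus Co4. Against the mean of the 5 CMC groups the counts were 1896 (reported 1) for CITCO in C57BL mice, 4837 (reported 147) for piperonyl butoxide, 1058 (reported 4) for livers labelled pioglitazone and 2785 (reported 33) for livers labelled methapyrilene. Single arrays moved them too: 602 genes passed for cyproterone acetate without its replicate 2 and 633 without corn oil replicate 2, 394 for 1,4-dichlorobenzene without its replicate 1, and for Wy-14643 1192 without its replicate 5 and 1222 without Co1 replicate 2. With array medians equalised, the split of higher and lower genes moved from 1010 and 926 to 882 and 1220 for Wy-14643, from 432 and 316 to 366 and 403 for 1,4-dichlorobenzene minus cyproterone acetate, from 3 and 1 to 3 and 5 for livers labelled pioglitazone, and from 13 and 10 to 9 and 21 for hCAR/hPXR controls minus Co4. The median of all genes moved by under 0.1 in each. Timp1 lay low on these arrays, and small differences in it may not be measurable.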
